A study of Mus musculus with 15 samples.

Results

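The mitochondrial ATP-Mg/phosphate carriers Slc25a23, Slc25a24 and Slc25a25 were followed in mouse skeletal muscle, as 3 of the 42396 gene entries of the deposited tables. The entries were chosen by symbol, and the family was proposed because Slc25a25 stood out between the treated and control libraries of both tables. Levels of the 3 carriers in that contrast are therefore given as a description, with no test. Slc25a41, another carrier of the family that lacks calcium regulation, is given for comparison.

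The study asked what LSMEM2, a muscle membrane protein, does in limb muscle. Adeno-associated virus of serotype AAV6 brought LSMEM2 C-del, a form of the protein, into the hindlimb of adult C57BL/6 mice, and mock mice were given EGFP, a green fluorescent protein, in its place. RNA of the tibialis anterior (TA), a fast muscle of the shin, was taken 2 months later and sequenced. All groups thus carried AAV6, and no group without virus was analysed here. Of the 4 groups, male mock, male C-del and female C-del had 4 libraries each and female mock had 3. The labels do not explain the name C-del or give the promoter of the vector or the exact age. They also do not say whether each library came from a separate animal, so the tests measure the spread between libraries, which may be technical. Each sex was deposited in its own table, and the effects of sex and of table cannot be told apart.

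ATP-Mg/phosphate carriers sit in the inner mitochondrial membrane and exchange ATP-Mg on one side for phosphate on the other. This exchange changes the total amount of adenine nucleotide in the matrix, whereas the ADP/ATP carriers swap nucleotide without changing that total. Their N-terminal part holds EF-hands facing the intermembrane space, and a rise in cytosolic calcium activates the transport. Mice that lack Slc25a25 are known for altered energy use in muscle and poorer endurance.

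Slc25a25 lies on chr2:32414487-32451445 of GRCm38, on the minus strand, and GENCODE lists 12 transcripts for it. RefSeq gives it 3 start sites, and the windows around them are shown because the counts are per gene and cannot tell these starts apart. Each window runs 5′ to 3′ from 250 bases before to 50 bases after a start (RefSeq, GRCm38.p6, minus strand), and capitals mark the full cAMP response element TGACGTCA, the site bound by CREB.
Slc25a25 start at chr2:32451421-32451720: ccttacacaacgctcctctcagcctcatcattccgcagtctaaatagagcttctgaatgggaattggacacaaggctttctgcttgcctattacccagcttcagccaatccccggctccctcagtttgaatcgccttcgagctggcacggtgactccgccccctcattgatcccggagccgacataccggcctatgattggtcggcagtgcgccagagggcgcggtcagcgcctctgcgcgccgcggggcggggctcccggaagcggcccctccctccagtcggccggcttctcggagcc
Slc25a25 start at chr2:32431102-32431401: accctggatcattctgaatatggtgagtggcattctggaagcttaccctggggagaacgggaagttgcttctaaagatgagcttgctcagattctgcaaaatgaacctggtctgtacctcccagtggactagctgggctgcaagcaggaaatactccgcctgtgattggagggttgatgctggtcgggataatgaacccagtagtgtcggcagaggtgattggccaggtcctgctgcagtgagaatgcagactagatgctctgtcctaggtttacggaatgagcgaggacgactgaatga
Slc25a25 start at chr2:32424017-32424316: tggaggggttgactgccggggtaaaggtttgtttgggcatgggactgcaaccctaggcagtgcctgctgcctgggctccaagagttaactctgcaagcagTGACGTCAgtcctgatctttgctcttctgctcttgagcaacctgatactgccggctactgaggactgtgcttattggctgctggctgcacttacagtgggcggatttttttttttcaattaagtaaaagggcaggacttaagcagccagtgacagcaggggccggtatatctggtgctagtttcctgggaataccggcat
The element stood in the third window alone, with its first base at position −150 from the start. Searched on both strands, it occurred in 588 of 32851 windows of the same length (1.79%), or in at least 1 window of 549 of 27025 genes. Its shorter core TGACG was present in 20.8% of windows, and its 2 matches in the third Slc25a25 window overlap the full element. The letters CCAAT were found 3, 2 and 1 times in the 3 windows, and in 37.4% of all windows. Neither the E-box CACGTG (7.15% of windows) nor the NR4A site AAAGGTCA (1.51%) was found in them. The full element was not in the 2 windows of Slc25a23 or the window of Slc25a24. These matches describe letters and not bound sites.

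Library depth was 14297620 to 15454510 assigned reads for mock males and 15304503 to 17744015 for C-del males. The female libraries were shallower, with 9285145 to 10790101 for mock and 10239329 to 12054871 for C-del. Levels are given as CPM, the reads of a gene relative to the depth of its library, scaled over all 15 libraries by the trimmed mean of M-values (TMM). The delivered gene Lsmem2 had 29.5 ± 0.569 CPM (SD, n = 4) in male mock and 1514 ± 815 (n = 4) in male C-del. It had 30.9 ± 1.81 (n = 3) in female mock and 1944 ± 579 (n = 4) in female C-del, so no library went against its label. The labels name skeletal muscle, while the text on RNA extraction names hearts. All 8 skeletal fibre markers were present and summed to between 116901 and 165047 CPM. The 4 heart markers summed to between 7.31 and 27.2 CPM, with the highest sum in female mock 3. The atrial genes Nppa and Myl7 were at 0 throughout the female mock libraries. The other heart markers were present there, with Myl4 at 9.78 to 21.6 CPM and Myh6 at 4.02 to 5.98. Leukocyte markers set some libraries apart. Their 12 genes summed to 1136 CPM in female mock 2 and 618 in female mock 3, against 94.8 in female mock 1 and 63.6 to 131 with C-del. In males the sums were 201 in C-del 1 and 214 in C-del 2, against 66.2 in C-del 3, 85.6 in C-del 4 and 89.6 to 111 in mock.

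Slc25a25 was higher in every C-del library than in every mock library of the same sex. The male mock libraries had 45.8, 51.5, 43.6 and 49.1 CPM, and the male C-del libraries had 186, 182, 219 and 221. The female mock libraries had 22.6, 22.5 and 25.5 CPM, and the female C-del libraries had 67.0, 84.3, 98.0 and 108. The groups did not overlap in either sex, and the lowest female C-del library also exceeded the highest male mock library. Group means were 47.5 ± 3.48 (SD, n = 4) and 202 ± 20.7 (n = 4) CPM in males, and 23.5 ± 1.73 (n = 3) and 89.3 ± 17.7 (n = 4) in females. The level was 4.24-fold higher with C-del in males (log2 fold change 2.08 ± 0.075 SE) and 3.79-fold higher in females (1.92 ± 0.17). In this contrast edgeR called 11.2% of 14543 genes in males and 0.0141% of 14220 in females. These values chose the family, so nothing is read from them. The 2 male C-del libraries with the highest leukocyte sums had the lowest Slc25a25 of their group, and without them the male log2 fold change was 2.21. Without female mock 2 and 3, the female value was 1.99.

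**Figure D1:**
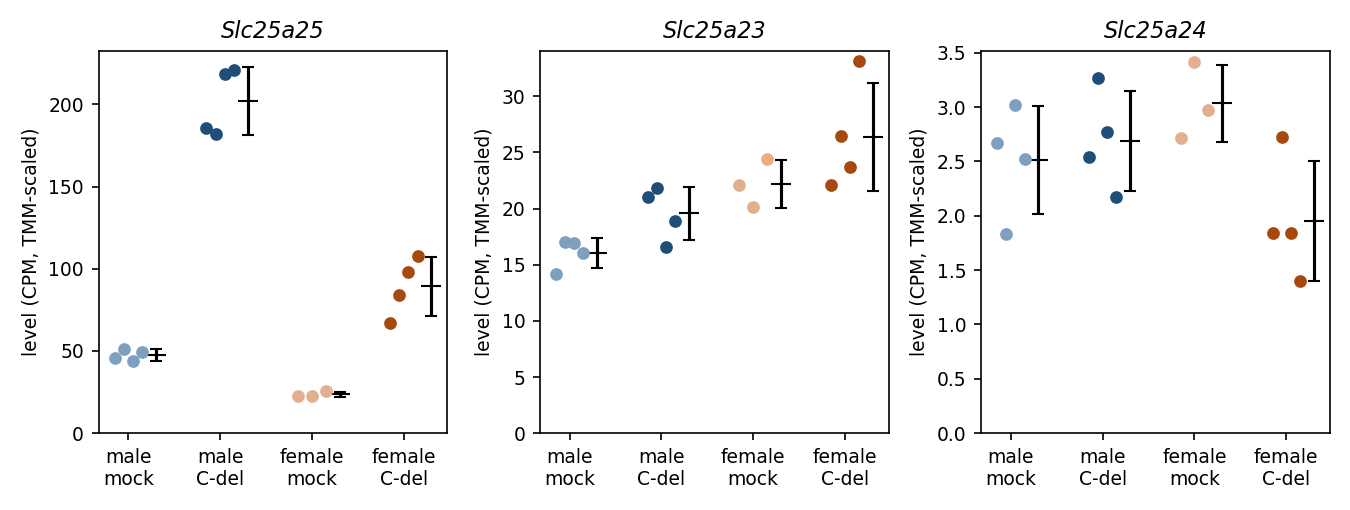
Levels of Slc25a25, Slc25a23 and Slc25a24 in each library (y axis, CPM after TMM scaling, each panel with its own scale from 0) by group (x axis). Points are libraries, and the bars beside them give the mean and SD. Slc25a25 lies at 43.6 to 51.5 in male mock and at 182 to 221 in male C-del, whereas the ranges of mock and C-del meet for both other carriers in each sex.

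Markers of fibre type and of other cell types moved with the C-del groups too. Of the 8 fibre markers, 3 had groups without overlap in males. The share of all genes with such groups was not counted in either sex. As a whole, edgeR called 11.2% of 14543 genes in males and 0.0141% of 14220 in females. Myh4, the myosin of the fastest fibres, ran from 42249 to 47157 CPM with mock and from 29009 to 42118 with C-del. Myh1, the myosin of the next fastest fibres, had 12223 to 12650 with mock and 13903 to 18295 with C-del, and the actin gene Acta1 had 27289 to 30322 and 32794 to 33987. In females Myh2, the myosin of fast oxidative fibres, was the marker without overlap, at 1522 to 2481 CPM with mock and 3675 to 5414 with C-del. The 7 endothelial markers had sums of 334 to 361 CPM with mock and 419 to 449 with C-del in females, without overlap, whereas in males the ranges were 454 to 487 with mock and 474 to 505 with C-del, with overlap. The 6 pericyte and smooth muscle markers had sums of 611 to 700 CPM with mock and 752 to 840 with C-del in females, but 930 to 997 with mock and 809 to 874 with C-del in males. Those sums were higher with C-del in females and lower in males. Rgs5 made up most of them, with means of 485 and 579 CPM in female mock and C-del. Kcnj8 was lower in females (28.1 and 27.4), and the other genes of that list were higher. Of the endothelial markers in males, Cldn5 (4.34 and 2.44, without overlap), Cdh5 (123 and 118) and Kdr (76.6 and 76.3) had lower means with C-del, and the others higher ones. The part of these fibre and cell type markers in the result was not tested. In whole muscle, fewer cells of a type and less RNA per cell cannot be told apart. Naif1, a gene on the opposite strand, overlaps Slc25a25 by 989 bases. Its level was between 1.45 and 4.21 CPM in all libraries, far below Slc25a25, with male means of 3.11 ± 0.741 in mock and 2.90 ± 0.295 in C-del (SD, n = 4 each).

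Slc25a23, the family member known as SCaMC-3, had groups whose ranges overlapped in both sexes, with 3 of 4 male and 2 of 4 female C-del libraries above every mock library of their sex. The male mock libraries had 14.2, 17, 17 and 16 CPM, and the male C-del libraries had 21.0, 21.8, 16.6 and 18.9. Female mock had 22.1, 20.2 and 24.4 CPM, and female C-del had 22.1, 26.5, 23.7 and 33.1. In males, C-del 3 lay below the highest mock libraries and in females C-del 1 and C-del 3 lay within the mock range, with C-del 4 as the highest library. Means were 16.1 ± 1.31 and 19.6 ± 2.34 CPM in male mock and C-del (SD, n = 4 each), and 22.2 ± 2.14 (n = 3) and 26.4 ± 4.84 (n = 4) in female mock and C-del. C-del and mock differed by a log2 value of 0.28 ± 0.091 (SE) for males and 0.25 ± 0.15 for females. The 2 highest male C-del libraries were those with the high leukocyte sums, and the male value was 0.15 without them. The part of leukocytes was not tested. Slc25a23 lies on chr17:57043711-57059863 on the minus strand. Crb3, which overlaps it on the opposite strand by 759 bases, had at most 0.299 CPM in any library, and the antisense gene Gm17168, which overlaps it by 3433 bases, was not analysed here.

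Slc25a24, the family member known as SCaMC-1, was the least abundant of the 3 carriers per length, with 14 to 57 counts a library. The male mock libraries had 2.67, 1.83, 3.02 and 2.52 CPM, and the male C-del libraries had 2.54, 3.27, 2.77 and 2.17. Female mock had 2.72, 3.42 and 2.97 CPM, and female C-del had 1.84, 2.72, 1.84 and 1.40. Male groups overlapped. In females C-del 2 reached the level of the lowest mock library, and the other 3 C-del libraries lay below. On the log2 scale C-del minus mock was 0.10 ± 0.19 (SE) for males and −0.64 ± 0.26 for females, a 1.55-fold lower mean with C-del. Female mock 2, which has the highest leukocyte sum, also has the highest Slc25a24. The female value was −0.46 without female mock 2 and 3, and the part of leukocytes was not tested. The gene lies on chr3:109123149-109168457 on the plus strand. The tables hold another entry, Slc25a24_1, with almost the same values (r = 0.99 over 15 libraries, values centred on sex, no p) and means of 2.46 CPM for mock males, 2.57 for C-del males, 2.93 for mock females and 1.84 for C-del females. How reads were divided between the entries is not given in the sources used here, so the level of Slc25a24 is uncertain. With both entries summed, the log2 fold changes were 0.077 in males and −0.65 in females.

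Slc25a41, the carrier without EF-hands, was listed with 1 count in male C-del 2 and in female C-del 1 and with 0 in all other libraries. It had too few counts to be tested, while the 3 calcium-regulated carriers passed the filter on low counts in every comparison. At this depth the largest value was 0.0878 CPM.

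The effects of C-del in the 2 sexes were also set against each other, as female minus male effect in edgeR over all 15 libraries. Over all genes, this contrast called 54 of 15272 (0.354%). For the carriers it is built from the contrasts that chose the family, and a choice for a high Slc25a25 in both sexes favours a small difference, so values are given with no test. The log2 difference was −0.16 ± 0.18 (SE) for Slc25a25, −0.040 ± 0.18 for Slc25a23 and −0.74 ± 0.31 for Slc25a24. With single libraries left out, that of Slc25a24 ran from −0.94 to −0.61. Neither equal nor unequal effects are read from these values.

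Without C-del, Slc25a25 was lower and Slc25a23 higher in the female than in the male muscle. In edgeR's test of female mock against male mock, 23.3% of 15272 genes passed (12.7% higher and 10.6% lower in females). Slc25a25 was 2.02-fold lower in female mock (log2 fold change −1.01 ± 0.14 SE, edgeR adjusted p = 0.000131), and the highest female mock library (25.5 CPM) lay below the lowest male mock library (43.6 CPM). It passed in all 19 alternatives, with log2 values of −1.08 to −0.97. These include the single omissions of the 8 C-del libraries, which this contrast does not compare, so those settings say little about the call. Slc25a23 was 1.38-fold higher in female mock (0.47 ± 0.13, edgeR adjusted p = 0.0197), again without overlap. That call was lost in 3 of 19 alternatives: without male mock 1 (0.41), without female mock 3 (0.39) and without both female mock 2 and 3 (0.45). Slc25a24 was 0.28 ± 0.23 log2 units higher (edgeR adjusted p = 0.397), and its ranges overlapped. Sex and table cannot be told apart in this contrast. The leukocyte sums above also differ between these groups, and their part in these differences was not tested. With female mock 1 as the only female mock library, the log2 value of Slc25a25 was −1.08.

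Levels of different genes were compared per length, as CPM divided by the kilobases of merged exons (5.294 for Slc25a23, 3.431 for Slc25a24 and 7.862 for Slc25a25). In male mock Slc25a25 had 6.04 ± 0.443 CPM per kb (SD, n = 4), Slc25a23 had 3.03 ± 0.248 and Slc25a24 had 0.732 ± 0.145. In female mock the order of the upper carriers was the other way round, with 4.2 ± 0.404 for Slc25a23 (n = 3), 2.99 ± 0.220 for Slc25a25 and 0.885 ± 0.103 for Slc25a24. In C-del Slc25a25 led in both sexes, at 25.7 ± 2.64 CPM per kb in males and 11.4 ± 2.25 in females (n = 4 each). With merged exons as length, no ranges of neighbouring carriers overlapped within a group. Slc25a25 made up 61.6% ± 2.69 (SD) of the family sum in male mock and 85.0% ± 2.75 in male C-del. In females its share was 37.1% ± 0.322 with mock and 66.9% ± 3.24 with C-del. The share of Slc25a23 was 30.9% ± 1.83, 12.4% ± 2.27, 51.9% ± 1.93 and 29.5% ± 2.63 in the order male mock, male C-del, mock and C-del of females, and that of Slc25a24 was 7.51%, 2.62%, 11% and 3.48%. The family sum was 9.81 ± 0.442 CPM per kb for mock males and 30.2 ± 2.16 for C-del males, and 8.08 ± 0.573 for mock females and 16.9 ± 2.91 for C-del females. The shares contain the Slc25a25 level itself and are no separate evidence. Dividing by the longest transcript instead gave Slc25a25 a share of 45.1% and Slc25a23 one of 48.4% in female mock. The gap between these carriers in female mock thus depends on the length used.

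**Figure D2:**
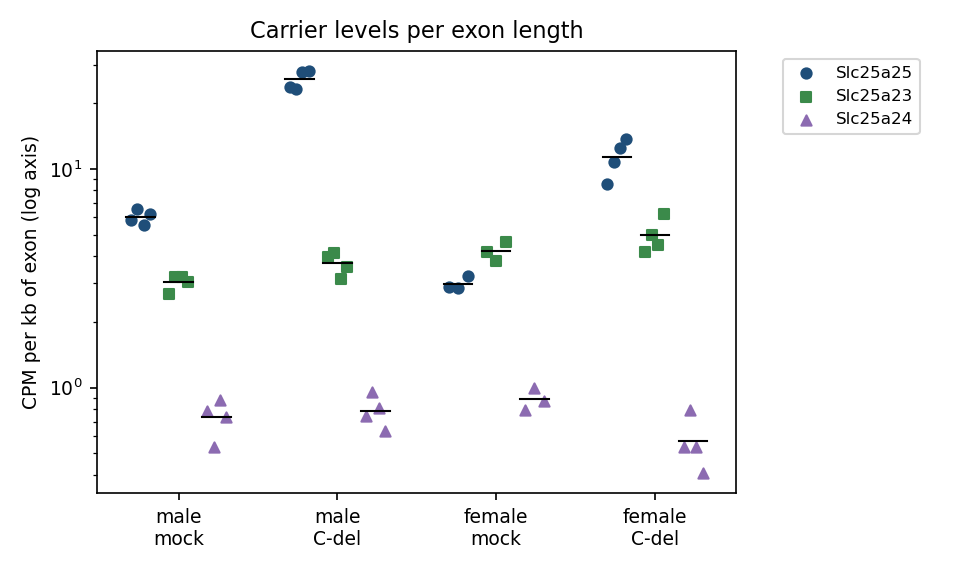
CPM per kilobase of exon (y axis, log scale) for the 3 carriers by group (x axis). Symbols are libraries and short lines are group means. Slc25a25 lies above Slc25a23 in male mock (6.04 against 3.03) and below it in female mock (2.99 against 4.2), and is the top carrier in both C-del groups. With the longest transcript as length, their mean shares in female mock were 45.1% and 48.4%, a smaller gap.

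Within the 8 C-del libraries, the level of Slc25a25 was set against that of Lsmem2, as log2(CPM + 1) centred on sex. Lsmem2 ran from 487 to 2384 CPM in males and from 1336 to 2678 in females. In males the library with least Lsmem2, C-del 1, had 186 CPM of Slc25a25, and the library with most, C-del 2, had 182. Pearson's r was 0.372 (exact permutation within sex, two-sided, p = 0.280) and Spearman's rho was 0.167 (exact permutation p = 0.667). For Slc25a23 r was 0.184 (exact p = 0.651) and rho 0.333 (exact p = 0.405), and for Slc25a24 r was 0.208 (exact p = 0.589) and rho 0.381 (exact p = 0.351). Adjusted over the 3 relations, the exact p for r was 0.651 for each. Without the 2 libraries farthest from the median of Lsmem2 (male C-del 1 and 2), r was 0.699 for Slc25a25 (exact permutation p = 0.25), 0.70 for Slc25a23 (exact p = 0.146) and −0.000615 for Slc25a24 (exact p = 1). Without male C-del 2 alone, r for Slc25a25 was 0.646 (exact permutation p = 0.0486, unadjusted), and over all single libraries left out it ran from 0.231 to 0.646. No relation was detectable among these 8 libraries.

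**Figure D3:**
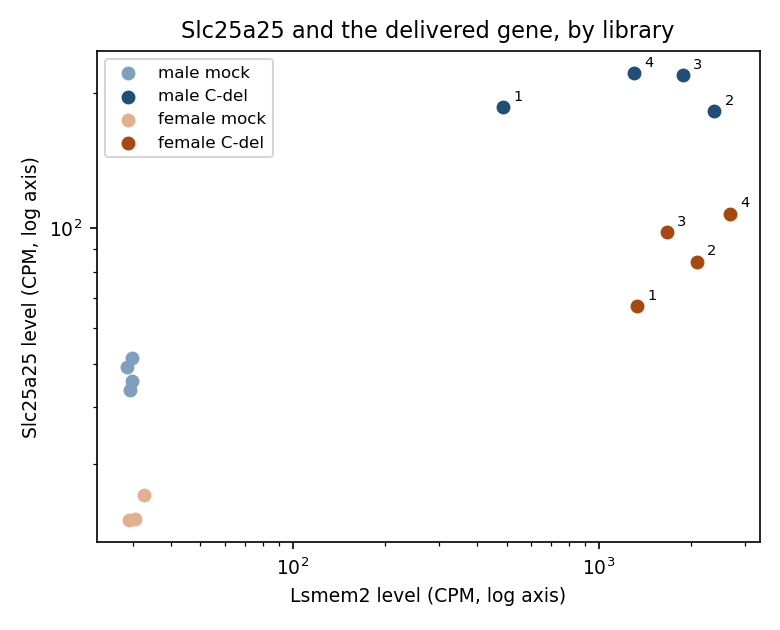
Slc25a25 (y axis, CPM, log scale) against Lsmem2 (x axis, CPM, log scale) in the 15 libraries, coloured by group, with the numbers of C-del libraries beside their points. Mock libraries sit at about 30 CPM of Lsmem2, and the male C-del libraries with 487 and 2384 CPM of Lsmem2 had nearly the same Slc25a25 (186 and 182).

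Genes whose pattern was most like that of each carrier were ranked by Pearson's r of log2(CPM + 1) over 15 libraries, centred on sex, among 13525 genes with a mean of at least 1 CPM in each sex. These are descriptions with no p, since the libraries share depth and groups. For Slc25a25 the leading gene was Lsmem2 (r = 0.98), followed by the pseudokinase gene Trib1 (0.95), Amotl2, an angiomotin family member (0.95), Tob2, an antiproliferative factor (0.95), and the small GTPase gene Rhob (0.95). Tob2 had 109 ± 7.57 and 171 ± 12.3 CPM in male mock and C-del (SD, n = 4 each) and 52.9 ± 4.85 (n = 3) and 102 ± 12.2 (n = 4) in females. Rhob had 46.4 ± 2.24 and 82.5 ± 2.91 in males and 31.5 ± 4.08 and 46.7 ± 4.37 in females. In each sex, both had higher values in all C-del libraries than in any mock library. Ranking by likeness to Slc25a25, whose own groups do not overlap, favours such a separation, so it is no separate evidence. Trib1 differed less, at 24.8 ± 1.11 and 31.4 ± 0.880 in males. Of the 5 genes most like Slc25a25 over all 15 libraries, 4 had a start window, among them the delivered gene Lsmem2. The cAMP response element was in 0 of these 4, against 2.03% of all genes, so nothing is read from the 0. Without female mock 2 and 3 the leading genes were Tsc22d3 (r = 0.98), Lsmem2, Mybpc1, Rhob and Klf2, so Lsmem2 and Rhob were in both lists.

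**Figure D4:**
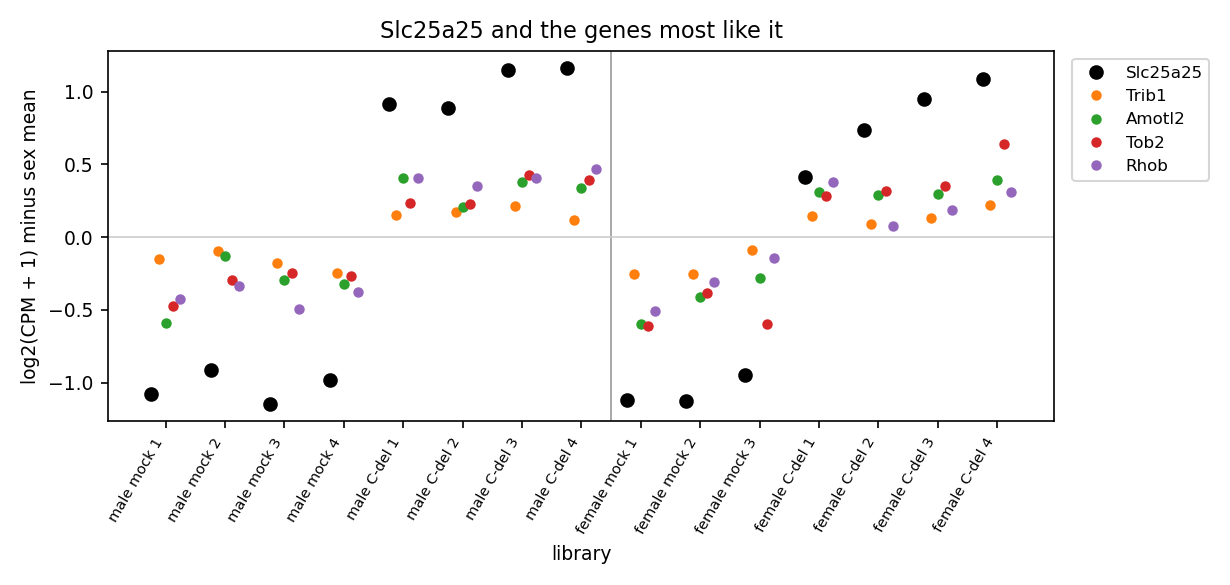
Level of Slc25a25 and of Trib1, Amotl2, Tob2 and Rhob in each library (y axis, log2(CPM + 1) minus the mean of the sex; x axis, libraries, which have no order within a group). Every plotted gene is below its sex mean in all mock libraries and above it in all C-del libraries. Choosing genes by likeness to Slc25a25 favours this pattern.

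Slc25a23 was most like Rhbdf1 (r = 0.87), Ttc9 (0.86), Ehd4 (0.85), Ube2g2 (0.85) and Airn_1 (0.84). Ehd4, a gene of membrane trafficking, had 77.3 ± 4.09 and 106 ± 22.7 CPM in male mock and C-del, and 67.2 ± 3.16 and 97.6 ± 22.2 in females. Slc25a24 was most like Med11_1 (r = 0.88), Hebp1 (0.82), Rgs19 (0.82), Mcm5 (0.81) and Ccnl2 (0.81). Mcm5, a gene of DNA replication, had 3.50 ± 1.97 CPM in female mock and 1.08 ± 0.125 in female C-del. Without female mock 2 and 3, the libraries with high leukocyte sums, 0 of the 5 genes stayed among the top 5 of Slc25a23, which were then Copa, Cdk2ap2, St6galnac4, Canx and Adcy6, and 2 of 5 (Med11_1 and Mcm5) stayed for Slc25a24. With each other, centred on sex, the carriers gave r = 0.67 for Slc25a25 and Slc25a23, −0.39 for Slc25a25 and Slc25a24, and −0.32 for Slc25a23 and Slc25a24. Centred on the 4 groups, r was 0.36, −0.50 and −0.22 in the same order. Once values were centred on the 4 groups, which leaves only the spread between libraries of a group, the genes most like Slc25a25 were the chaperone gene Dnajb5 (0.91), Trim54 (0.89), Ino80c (0.88), the lactate transporter gene Slc16a3 (0.88) and Ensa (0.87). For Slc25a23 they were then Cd300lg, Myom3, Lsm8, Eif4ebp3 and Cnksr2 (r of 0.83 to 0.86), and for Slc25a24 Ccng2, Angpt1, Ccnl2, Fam171b and B3galt2 (0.79 to 0.87). Ccnl2 alone was in both lists of Slc25a24. Without female mock 2 and 3, the group-centred lists kept 1 of 5 genes for Slc25a25 (Trim54), 1 for Slc25a23 (Cd300lg) and 2 for Slc25a24 (B3galt2 and Fam171b).

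Related genes were read from 5 lists of the pathways these carriers serve. In males, 7 of the 63 list genes tested were higher and 3 lower with C-del by edgeR at adjusted p 0.05, against 5.80% higher and 5.37% lower among all genes tested. Of the adenine nucleotide and phosphate list, 4 of 11 tested genes were higher and 1 was lower, with a median log2 fold change of 0.065 against −0.0047 over all genes. Ckmt2, the mitochondrial creatine kinase that hands phosphate from ATP to creatine, went from 2024 ± 55.8 to 2749 ± 444 CPM (SD, n = 4 each, 1.35-fold, edgeR adjusted p = 0.0174). Slc25a5, an ADP/ATP carrier, was 1.16-fold higher (edgeR adjusted p = 0.0263), and Slc25a3, the phosphate carrier, was 1.10-fold higher (edgeR adjusted p = 0.0487). Ak3, a matrix nucleotide kinase, was 1.13-fold higher (edgeR adjusted p = 0.0380). Ak4, another kinase of the matrix, fell from 7.0 ± 1.04 to 4.45 ± 0.827 CPM (1.58-fold, edgeR adjusted p = 0.0105). The main muscle ADP/ATP carrier Slc25a4 had 4636 ± 33.1 and 4808 ± 149 CPM (log2 fold change 0.049 ± 0.043), which did not pass. Several of these calls were lost under other settings. Of 15 alternatives the call held in 14 for Ak4, 10 for Ckmt2, 6 for Slc25a5, 5 for Ak3 and 3 for Slc25a3. In a fit of all 15 libraries, the list had 0 genes past the threshold.

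Of the list of mitochondrial calcium transport, 1 of 13 genes was higher and 1 lower in males, with a median of 0.0035. Letm1, an exchanger of the inner membrane, was 1.17-fold higher (99.6 ± 3.29 to 116 ± 3.10 CPM, edgeR adjusted p = 0.00503). Micu3, a regulator of the calcium uniporter, was 1.36-fold lower (19.7 ± 2.40 to 14.6 ± 2.19, edgeR adjusted p = 0.0213). The uniporter pore Mcu had 35.9 ± 2.42 and 35.8 ± 1.89 CPM, and the calcium-binding aspartate/glutamate carrier Slc25a12 had 633 ± 4.14 and 659 ± 16.4, and neither passed. Of the ATP synthase list, 2 of 16 genes were higher: Atp5g1, a subunit of the rotor ring (1.19-fold, edgeR adjusted p = 0.00189), and Atp5d (1.14-fold, edgeR adjusted p = 0.0243), with a list median of 0.031. The AMPK list, subunits of the kinase that senses low energy, had 1 of 7 lower: Prkag2, from 28.2 ± 3.72 to 19.9 ± 2.31 CPM (1.41-fold, edgeR adjusted p = 0.00766), with a list median of −0.13. Of the 16 genes of sarcoplasmic and cytosolic calcium handling, edgeR called 0, with 4 lower and 0 higher at unadjusted p under 0.05, and DESeq2 called 2 lower. Over all genes, 1874 of 14543 were lower at unadjusted p under 0.05, and DESeq2 called 667 of 24356 lower. The list median was −0.090. The calls of Letm1, Atp5g1 and Prkag2 held in 13 of 15 alternatives, that of Micu3 in 7 and that of Atp5d in 6.

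In females edgeR called 0 of the 63 list genes, with 3 higher and 6 lower at unadjusted p under 0.05, and DESeq2 called 0 as well. Over all 14220 genes tested, edgeR called 2 (0.0141%), and 684 were higher and 1008 lower at unadjusted p under 0.05. The 0 moved with the setting. Without female mock 1, edgeR called 1 gene of the adenine nucleotide and phosphate list, 2 of the mitochondrial calcium list and 1 of the AMPK list, all lower. Over all genes, that setting called 936 of 14706 lower. The fit of all 15 libraries called 1 lower in the first and 1 in the last of these lists, against 515 of 15272 over all genes. Nothing particular to the lists is read from these counts. Ckmt2 had 2008 ± 439 CPM (SD, n = 3) in mock and 2401 ± 303 (n = 4) in C-del, and Prkag2 had 15.1 ± 3.53 and 9.23 ± 1.23. Letm1 had 92.3 ± 12.6 and 106 ± 8.99 CPM. Of the difference between the sexes, edgeR called 0 of the 63 list genes, with 3 higher and 4 lower in females at unadjusted p under 0.05, while DESeq2 called 1 lower. Over all genes, 1083 were higher and 1491 lower at unadjusted p under 0.05. That 0 also moved when female mock 1 was left out, and the cause was not tested. Without that library, edgeR called 2 genes lower in females in the adenine nucleotide and phosphate list and 2 in the mitochondrial calcium list. It called 4 higher in the sarcoplasmic and cytosolic calcium list and 1 in the AMPK list. Over all 15791 genes tested in that setting, 602 were called higher and 1215 lower, so nothing particular to the lists is read from these counts.

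**Figure D5:**
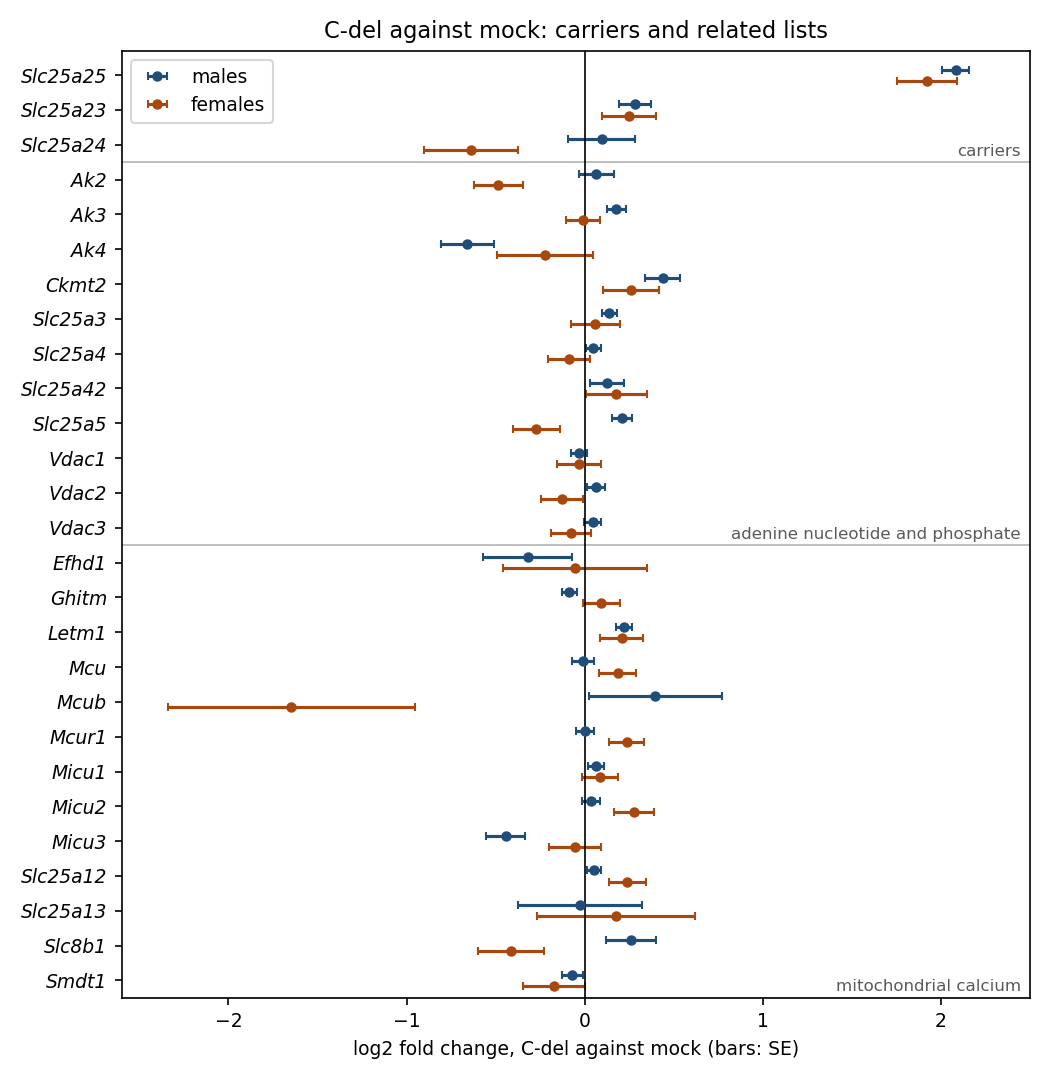
Log2 fold change of C-del against mock (x axis, bars are SE) in males and females for the 3 carriers, the adenine nucleotide and phosphate list and the mitochondrial calcium list (y axis). Slc25a25 stands at 2.08 in males and 1.92 in females, and the family was chosen for this difference. The widest bar is that of Mcub in females (−1.65 ± 0.69), a gene of 2.33 ± 1.76 CPM in female mock.

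Between the mock groups, where sex and table cannot be told apart, 16 of the 63 list genes were higher and 4 lower in females. The ATP synthase list had 7 of 16 higher and 0 lower, and the adenine nucleotide and phosphate list had 4 of 11 higher and 0 lower, against 12.7% and 10.6% of all genes. Ak4 was 2.91-fold higher in female mock (7.0 ± 1.04 against 20.4 ± 7.26 CPM, edgeR adjusted p = 0.000432), and Slc25a4 was 1.31-fold higher (edgeR adjusted p = 0.00555). Micu2, a partner of the uniporter, was 1.31-fold higher (edgeR adjusted p = 0.00366), and Casq2, the calsequestrin of slow and heart muscle, was 2.19-fold higher (edgeR adjusted p = 0.000148). Prkag2 was 1.86-fold lower and Prkag3, the AMPK subunit of fast muscle, was 1.85-fold lower (edgeR adjusted p = 0.000791 and 0.00172). The ATP synthase count moved between 1 and 11 when single libraries were left out.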

How the data were processed

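RNA of 15 libraries was measured with a kit for stranded mRNA, per the labels' protocols. The authors deposited expected counts per gene entry, not all of them whole, in one table for each sex, and the submitters' processing notes name featureCounts 2.0.0 and build GRCm38.p6. The aligner, strand setting and annotation were not given in the sources used here. Male columns were matched to groups only and keep their own column numbers as names, and female columns to library titles. Expected counts were rounded, filtered with filterByExpr (minimum count 10), scaled by TMM and tested with edgeR 4.0.16 (robust quasi-likelihood) in R 4.3.3, with Benjamini-Hochberg adjustment and a threshold of 0.05. C-del against mock was fitted within each sex, and the other contrasts over all libraries. DESeq2 1.42.0, other scaling, no filter, left-out libraries and summed Slc25a24 entries were the alternatives. Levels are joint TMM CPM, and log2(CPM + 1) was used for likeness. Scripts were tested on simulated data. No library pair agreed within counting noise. Gene positions and exon lengths came from GENCODE for GRCm38, and start windows from RefSeq. Named genes were the carriers, Lsmem2, of each list up to 6 that passed and up to 4 of high level, and the 5 genes most like each carrier. The members and lists were chosen with earlier results of these data known.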

Additional observations from a re-analysis of the deposited data

How the results depend on the processing

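The genes called for C-del in males numbered 1624. They fell to 767 without male mock 3 and 4 and to 380 in a fit of all 15 libraries, and ran from 1100 to 1526 with single libraries left out. In females the 2 calls became 512 with DESeq2 (24.8% of them higher), 16 without a filter, 4 without female mock 2 and 3 and 777 in the fit of all 15, and ran from 1 to 1050 with single libraries left out (1050 without female mock 1). For the female minus male effect the 54 calls became 666 with DESeq2 and ran from 10 to 1817 (1817 without female mock 1, 141 without female mock 2). The 3556 calls between the mock groups became 1808 without female mock 2 and 3 and ran from 2641 to 4771. The causes were not tested.

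The small female minus male difference of Slc25a23 (−0.040) ran from −0.17 to 0.035 with single libraries left out and changed sign in 5 of those 15 settings: 0.015 without male mock 1, 0.016 without male C-del 2, 0.032 without female mock 3, 0.035 without female C-del 1 and 0.0074 without female C-del 3. Between the mock groups Slc25a23 ran from 0.39 to 0.52, and was 0.45 without female mock 2 and 3. Its relation to Lsmem2 ran from −0.077 to 0.77 (−0.077 without female C-del 4, −0.0029 without male C-del 2). That of Slc25a24 ran from −0.048 to 0.51, and that of Slc25a25 from 0.23 to 0.65.

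Dividing by the longest transcript gave, in the order mock and C-del of males and then of females, shares of 69.3%, 88.7%, 45.1% and 73.3% for Slc25a25, 26.6%, 9.90%, 48.4% and 24.8% for Slc25a23, and 4.11%, 1.33%, 6.52% and 1.86% for Slc25a24. Summing the entries of Slc25a24, chosen after seeing the data, gave it 13.8%, 5.0%, 19.5% and 6.51%, with 57.4% and 33.5% for Slc25a25 and 28.8% and 47.0% for Slc25a23 in male and female mock.

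Numbers shared by mock and C-del libraries showed no sign of pairing. Deviations of same-numbered libraries gave r of −0.135 to −0.00922 in females and −0.0975 to 0.0202 in males. Differently numbered libraries gave −0.194 to 0.211 in females and −0.0761 to 0.0990 in males. With so few libraries this cannot exclude a pairing. With the replicate block, 2 genes were called in females and Slc25a25 had a log2 fold change of 1.80, with 0.12 for Slc25a23 and −0.52 for Slc25a24. The block over male column numbers, added after seeing the data, called 1162. Low counts limit Slc25a24 and Slc25a41.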
